A study of Mus musculus with 8 samples.

Results

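The Rab GTPases described here are the 58 genes whose array symbol is Rab followed by a number and at most 1 letter and 1 further digit, out of 22180 genes that the arrays name by a single symbol. They were matched by 66 probe sets, and each gene was represented by its probe set with the highest mean over all arrays, a choice that 7 genes with several probe sets needed. The RNA was that of wild-type CD11c+ BMdDCs, dendritic cells derived from bone marrow of female C57BL/6 mice. GM-CSF (20 ng/ml) and normoxia (21% O2) were used for the 7 days of growth, after which cells bearing the surface protein CD11c were taken with magnetic beads. The purified cells of both groups then spent 2 days at 2% O2, again with GM-CSF at that dose. For 6 further hours the SCF group had stem cell factor, which binds the receptor Kit, at 100 ng/ml, while the medium group was left without it. There were 4 experiments, called BC, D2, E and I, each with 1 medium and 1 SCF array, hence 4 arrays per group. How many mice went into an experiment is not said in the labels. The p-values for SCF therefore set the mean difference between paired arrays against its spread over these 4 preparations. That spread was drawn towards the spread typical of all probe sets tested. All 8 arrays come from low oxygen, so nothing here shows what low oxygen did to a Rab gene.

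Rab proteins are small GTPases that sit on the membranes of the secretory and endocytic pathways and give each compartment its identity. In their GTP-bound form they recruit effectors that move, tether and fuse vesicles, exchange factors switch them on, and GTPase-activating proteins switch them off. Lipid anchors at their tails hold them in membranes, and GDP dissociation inhibitors carry them back through the cytosol. In dendritic cells they serve antigen uptake, phagosome maturation, the traffic of MHC molecules to the surface and cytokine secretion.

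Values are log2 intensities of the deposited table, which carries no detection call. A gene was tested where its mean over the 8 arrays reached 4.05, the median of the mean log2 intensities of probe sets that have a symbol. Of all 22180 genes named by a single symbol 11351 reached that filter. Of the 58 Rab genes 47 reached it and 11 did not. Those closest to it were Rab9b inside, with a mean of 4.13, and Rab39b outside, with a mean of 3.87. The brightness of a probe set depends on its probes, so intensities of different genes are not compared here as amounts of RNA. Bulk arrays also cannot tell fewer cells of a type from less RNA per cell. All 13 dendritic cell markers on the arrays were above the filter, among them the CD11c gene Itgax and the MHC class II gene H2-Ab1, while none of 7 T and NK cell markers, 1 of 8 neutrophil markers, 1 of 4 B cell markers, 2 of 12 mast cell and basophil markers (Cpa3 and Gata2) and 2 of 6 stromal and endothelial markers (Cdh5 and Vwf) were. All 8 macrophage markers were above it, and 3 of them differed between experiments with their highest mean in E, namely C1qb, Cd14 and Fcgr1 (limma F-test, adjusted p = 0.0428, 0.0124 and 0.0360). The mast cell marker Cpa3 also differed between experiments, with means of 5.03, 4.01, 4.34 and 4.82 in BC, D2, E and I (limma adjusted p = 0.0333).

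**Figure D1:**
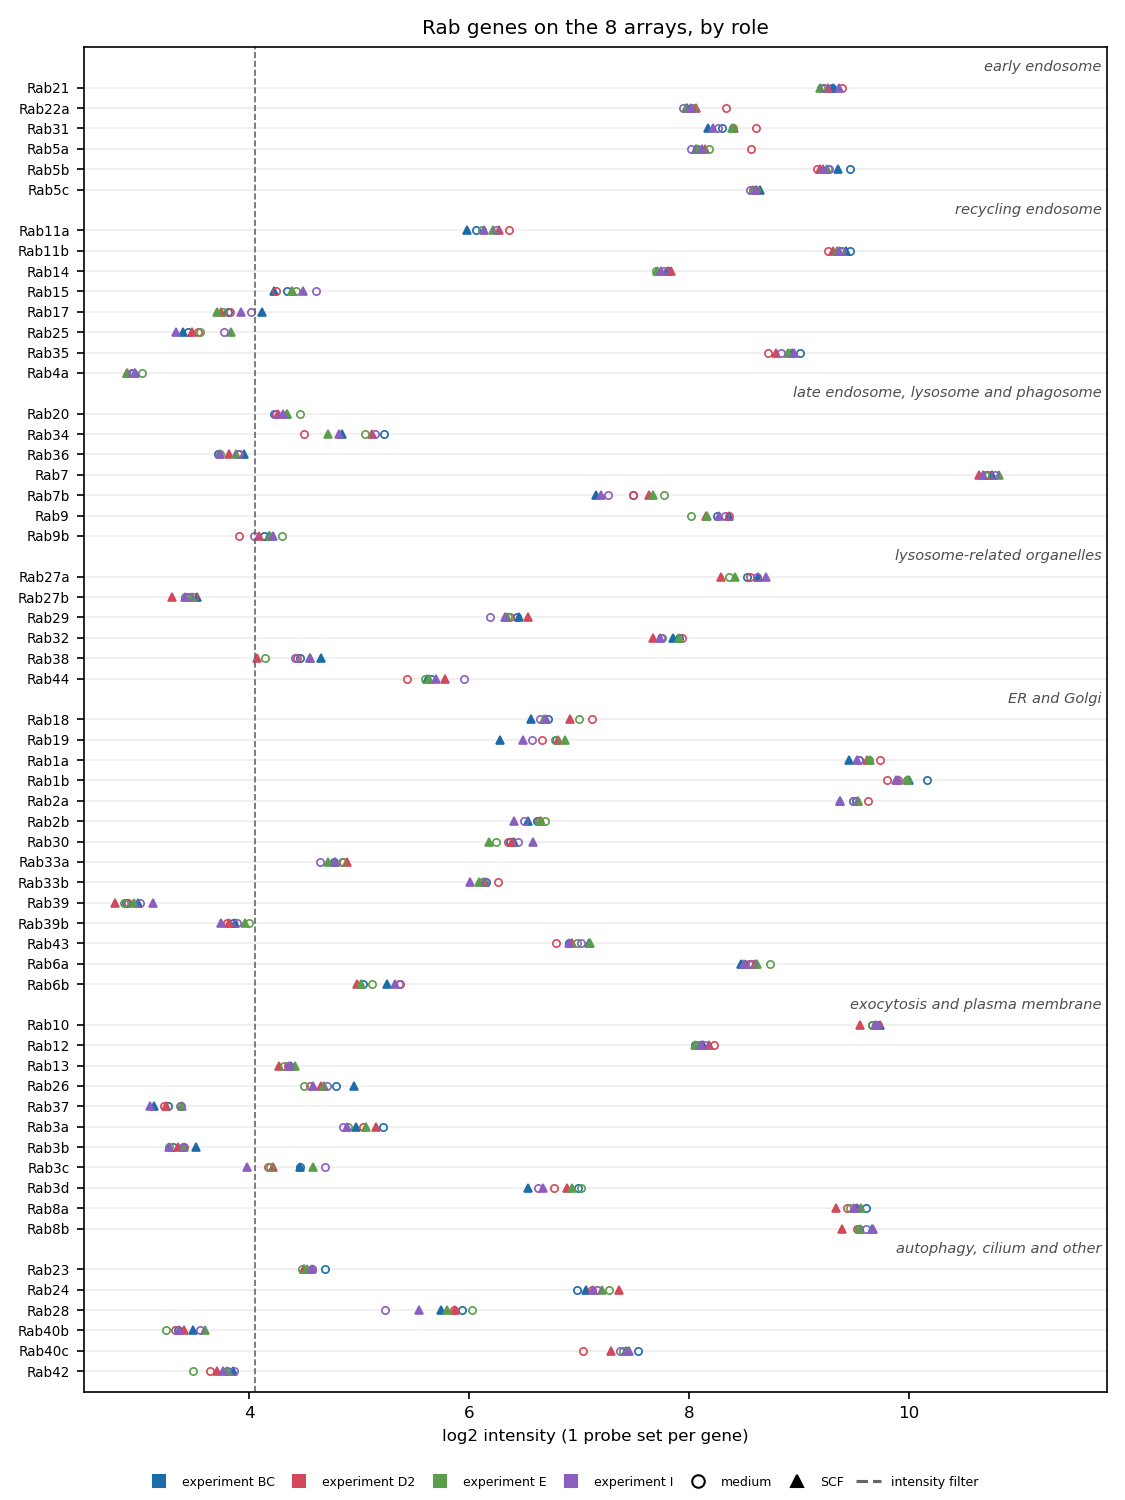
Log2 intensity (horizontal axis) of the 58 Rab genes on the 8 arrays, ordered by the role of the protein, with circles for medium, triangles for SCF, colours for experiments and a dashed line at the filter of 4.05. Medium and SCF symbols lie mixed within the genes, and 11 genes have their mean left of the line.

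Stem cell factor left no Rab gene past the threshold. With experiment as a block, 0 of 47 Rab genes had an adjusted p under 0.05 in limma, where 0% of all 12668 probe sets tested did, and the smallest adjusted p of a Rab gene was 0.945. Without adjustment, 0 of 47 were under 0.05, against 4.21% of all probe sets. The fitted log2 differences of SCF minus medium lay between −0.15 for Rab18 and 0.09 for Rab38, or 0.898-fold to 1.06-fold. Their median was −0.02, against 0.00077 over all probe sets, and 28 of 47 were below 0 (59.6%, against 49.5% of all). Without 1 experiment the median came to −0.0093 (BC left out), −0.0063 (D2), −0.03 (E) and −0.02 (I). The split moved with the scaling for the Rab genes and for all probe sets, to 35 of 47 (74.5%, against 60.5% of all) when array medians were set equal and to 33 of 47 (70.2%, against 55.9% of all) after a repeated quantile normalization. In 2 of 47 Rab genes, Rab31 and Rab33b, all 4 experiments shared a sign (4.26%, against 12.9% of all).

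Where a probe set has signal, the intervals show how small a change these arrays leave room for. With a bound of 1.25-fold either way, chosen after the values were seen, 43 of 47 Rab genes had a 95% interval wholly inside (91.5%, against 90.9% of all probe sets). The 4 whose interval reached beyond were Rab19, Rab34, Rab38 and Rab3c. SEs of the log2 difference ran from 0.05 to 0.16, with a median of 0.06. Precision is limited by the number of arrays, 4 per group. It differs between genes with the spread of their SCF minus medium differences over the 4 experiments.

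**Figure D2:**
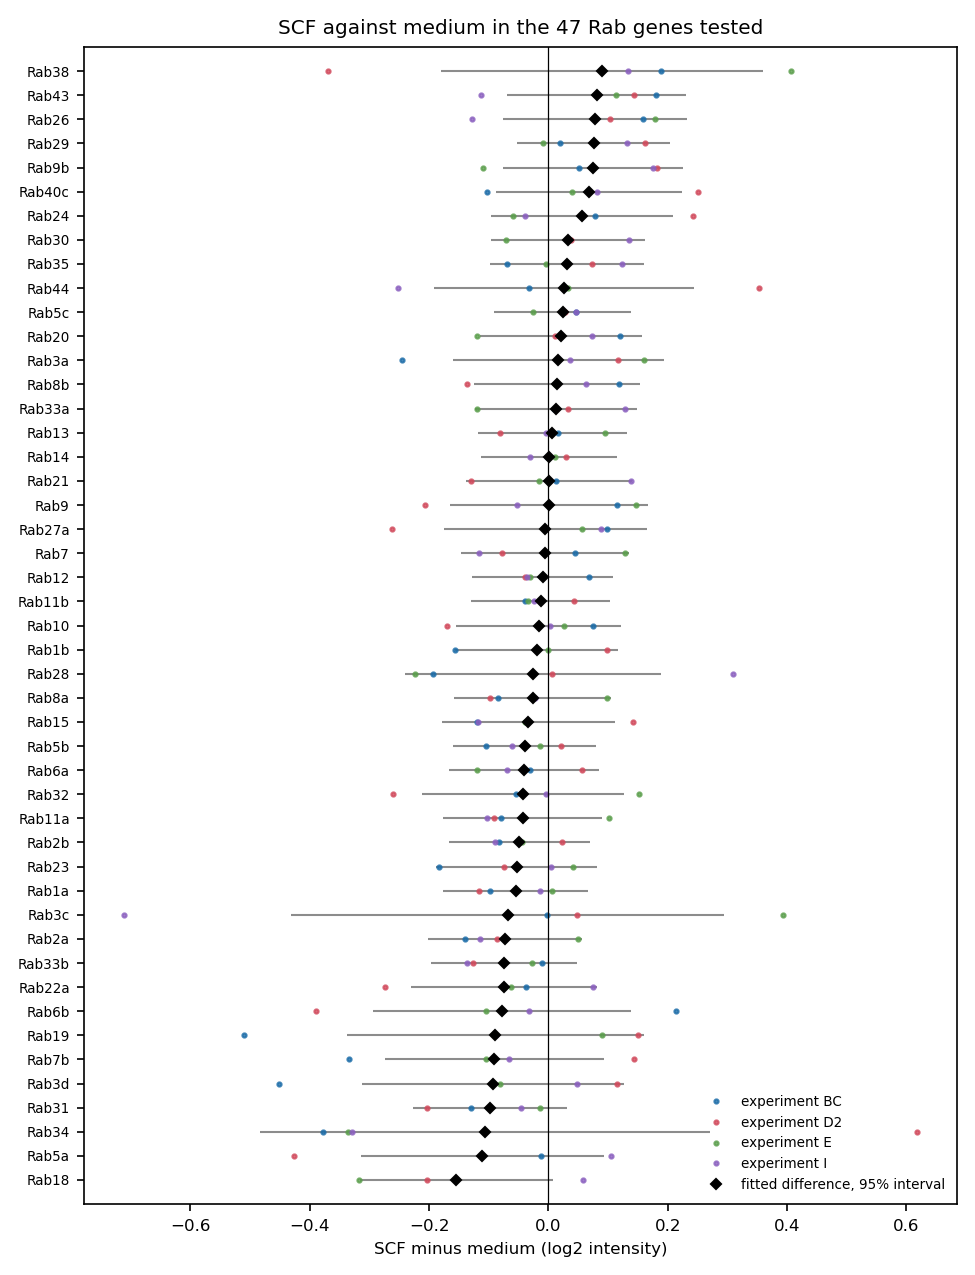
SCF minus medium in log2 intensity (horizontal axis) for the 47 Rab genes tested, with a diamond for the fitted difference, a grey line for its 95% interval and a coloured point for each experiment. Every interval crosses 0, and the longest belong to Rab34 and Rab3c, whose experiments go in opposite directions.

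The early endosome Rabs were all above the filter, 6 of 6, and 4 of them were below 0 with SCF (median log2 difference −0.06). The Rab5 paralogues Rab5a, Rab5b and Rab5c direct the fusion of incoming vesicles with early endosomes. Rab5a read 8.07, 8.57, 8.18 and 8.02 in medium and 8.06, 8.14, 8.07 and 8.12 with SCF, in the order BC, D2, E and I that is kept for all lists of 4 values. Its D2 medium array stood above the other 7 arrays and the groups overlapped. SCF minus medium came to −0.11 over all pairs (limma adjusted p = 0.945, SE 0.09, 95% interval −0.32 to 0.09). It was −0.43 in D2 and between −0.11 and 0.11 in the others. Rab5b stood the other way in D2, with 9.46, 9.17, 9.26 and 9.28 in medium and 9.35, 9.19, 9.25 and 9.21 with SCF. Both of its D2 arrays were the lowest of their group and both BC arrays the highest, and its difference with SCF was −0.04 (SE 0.05, 95% interval −0.16 to 0.08, limma adjusted p = 0.960). Rab5c, with 8.59, 8.58, 8.61 and 8.56 in medium and 8.64, 8.61, 8.58 and 8.60 with SCF, showed neither pattern. Its experiment means spanned 0.04, against a median of 0.22 over the Rab genes tested, and its difference was 0.02 (SE 0.05, 95% interval −0.09 to 0.14).

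The other early endosome members act at neighbouring steps. Rab22a, which sorts cargo between endosomes, read 8.02, 8.33, 8.03 and 7.94 in medium and 7.98, 8.06, 7.97 and 8.02 with SCF. As for Rab5a, its D2 medium array was the highest of the 8, and its difference was −0.08 (SE 0.07, 95% interval −0.23 to 0.08). Rab31, a close relative of Rab22a that works in traffic between the Golgi and endosomes, read 8.30, 8.61, 8.40 and 8.26 in medium and 8.17, 8.40, 8.39 and 8.22 with SCF. Its SCF array was the lower of the pair in 4 of 4 experiments, by amounts from 0.01 in E to 0.20 in D2, and the groups overlapped (log2 difference −0.10, SE 0.06, 95% interval −0.23 to 0.03, limma adjusted p = 0.945). Rab21, which carries integrins through endosomes, differed by 0.00069 (SE 0.06).

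Rab5a and Rab5b stood at opposite ends in D2 and Rab31 was lower with SCF in every experiment, so the 250 bases before their transcription start are shown, a choice made after the values were seen. Neither Rab5a nor Rab5b passed between experiments (limma F-test, adjusted p = 0.34 and 0.24), and Rab31 did not pass with SCF. A link between these sequences and the levels was not tested. Rab33b, which was also lower in every experiment, is not shown. The sequences are RefSeq's (build GRCm38.p6) and lie at chr17:53478984-53479233 on the plus strand for Rab5a, at chr10:128696269-128696518 on the minus strand for Rab5b and at chr17:65772753-65773002 on the minus strand for Rab31. For Rab5b the gene annotation puts the first base of the gene at 128696284, within the window, so the window's end lies inside the annotated gene. Capitals mark CACGTG (the E-box), ACGTG (the core of the hypoxia response element, which every CACGTG also holds), GGGCGG (the GC box) and TATAAA, each searched on both strands, so a GC box on the other strand appears as CCGCCC.
Rab5a: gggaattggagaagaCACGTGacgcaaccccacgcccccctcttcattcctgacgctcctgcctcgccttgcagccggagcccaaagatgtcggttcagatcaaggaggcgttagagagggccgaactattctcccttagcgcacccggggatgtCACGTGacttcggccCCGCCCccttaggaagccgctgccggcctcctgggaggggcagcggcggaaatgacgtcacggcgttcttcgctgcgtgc
Rab5b: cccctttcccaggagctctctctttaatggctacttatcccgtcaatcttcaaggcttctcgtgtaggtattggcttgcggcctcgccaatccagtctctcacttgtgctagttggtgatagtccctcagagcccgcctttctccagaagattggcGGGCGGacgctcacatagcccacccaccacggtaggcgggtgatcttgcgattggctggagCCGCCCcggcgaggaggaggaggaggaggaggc
Rab31: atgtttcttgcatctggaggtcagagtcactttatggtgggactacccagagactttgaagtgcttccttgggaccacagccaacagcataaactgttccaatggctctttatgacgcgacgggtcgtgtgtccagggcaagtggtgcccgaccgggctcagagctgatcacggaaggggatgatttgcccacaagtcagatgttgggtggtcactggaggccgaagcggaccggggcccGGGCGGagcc

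In these windows Rab5a held 2 E-boxes and 1 GC box, Rab5b held 2 GC boxes and no E-box, and Rab31 held 1 GC box. Promoters were found for 47 of the 58 Rab genes, in 59 windows. At least 1 GC box stood in 39 of 59 Rab windows (66.1%), where 32.7% of all 32851 windows of this length had one. The windows of tested Rab genes had a median GC content of 61.2%, against 52.4% over all windows. A match to GGGCGG is more likely in a GC-rich window, and the shares were not corrected for this. Shares for the other motifs were 8.47% against 6.02% for the E-box, 16.9% against 16.6% for the hypoxia core and 6.78% against 12.4% for TATAAA. The 40 Rab genes above the filter with a promoter had a median of 16 CpG dinucleotides per window (2 to 42). Those below it, only 7 genes, had a median of 8 (3 to 18). Over all windows, not split by the filter, the median was 6 (0 to 56). These matches describe letters in a window and do not show that a factor binds there.

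Recycling Rabs bring receptors and MHC molecules back to the surface, and 5 of 8 were above the filter. Rab11a and Rab11b mark the recycling endosome. Rab11a read 6.06, 6.36, 6.11 and 6.24 in medium and 5.98, 6.27, 6.21 and 6.14 with SCF (log2 difference −0.04, SE 0.06), and Rab11b differed by −0.01 (SE 0.05). Both D2 arrays of Rab11a were the highest of their group and both BC arrays the lowest. Rab14, which works between the Golgi and endosomes, had the smallest SE of the family, with 7.81, 7.80, 7.70 and 7.77 in medium and 7.81, 7.83, 7.71 and 7.74 with SCF (difference 0.0016, SE 0.05, 95% interval −0.11 to 0.12). Rab35, a regulator of fast recycling, read 9.01, 8.72, 8.91 and 8.83 in medium and 8.94, 8.79, 8.90 and 8.96 with SCF, a difference of 0.03 (SE 0.06). The groups overlapped for Rab14 and Rab35 alike. Rab15 differed by −0.03 (SE 0.06).

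The 3 recycling genes below the filter were Rab4a, Rab17 and Rab25. Rab17 and Rab25, which are known from epithelial cells, had means of 3.86 and 3.54. Rab4a, a regulator of fast recycling in many cell types, read between 2.88 and 3.02 on all 8 arrays. Rab4b is matched by probe sets that share several symbols, so it has no value here.

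Among the late endosome, lysosome and phagosome members, 6 of 7 were above the filter and 3 of these were below 0 with SCF. Rab7, which drives the maturation of late endosomes and their fusion with lysosomes, read 10.71, 10.72, 10.69 and 10.78 in medium and 10.75, 10.64, 10.82 and 10.67 with SCF. The groups overlapped, and the difference was −0.0058 (SE 0.06, 95% interval −0.15 to 0.13, limma adjusted p = 0.998). Rab9, which returns receptors from late endosomes to the Golgi, differed by 0.00049 (SE 0.07). Rab7b, a paralogue that acts between late endosomes and the Golgi and is found in monocytic cells, varied more, with 7.49, 7.49, 7.78 and 7.26 in medium and 7.16, 7.64, 7.67 and 7.20 with SCF. It differed by −0.09 (SE 0.08, limma adjusted p = 0.945) and by −0.33 within BC. Rab9b, a relative of Rab9, read 4.13, 3.90, 4.30 and 4.04 in medium and 4.18, 4.09, 4.19 and 4.22 with SCF, with overlapping groups (difference 0.07, SE 0.06, limma adjusted p = 0.945). Rab36 was below the filter.

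Rab34 and Rab20 are further members of this group that act on phagosomes. Rab34, which helps lysosomes move and fuse with phagosomes, had the widest interval of the family. Its arrays read 5.22, 4.49, 5.05 and 5.14 in medium and 4.85, 5.11, 4.72 and 4.82 with SCF. In BC, E and I it was lower with SCF by 0.38, 0.34 and 0.33, while in D2 it was higher by 0.62. The fitted difference over all 4 experiments was −0.11 (SE 0.16, 95% interval −0.48 to 0.27, limma adjusted p = 0.966). Without D2 it was −0.35, which did not pass (unadjusted p = 0.000894, limma adjusted p = 0.978).

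Rab20, a phagosomal Rab that hypoxia-inducible factor is known to induce in other cells, stood near the filter at 4.22, 4.25, 4.46 and 4.23 in medium and 4.34, 4.26, 4.34 and 4.31 with SCF (difference 0.02, SE 0.06, 95% interval −0.12 to 0.16). The medium array of E was above all others. A second probe set of Rab20 had a mean of 3.91, below the filter. The 250 bases before its start, at chr8:11478641-11478890 on the minus strand, are shown because the cells were kept at low oxygen and the window holds the hypoxia core, within an E-box. The E-box and a GC box are in capitals.
Rab20: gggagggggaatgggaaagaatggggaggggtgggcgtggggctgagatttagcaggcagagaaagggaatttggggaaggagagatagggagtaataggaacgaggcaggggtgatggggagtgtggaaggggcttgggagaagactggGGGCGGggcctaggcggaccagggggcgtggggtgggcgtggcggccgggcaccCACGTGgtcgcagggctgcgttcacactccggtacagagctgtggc

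Rabs of lysosome-related organelles, the secretory lysosomes, melanosomes and granules of specialised cells, were above the filter in 5 of 6 cases. Rab27a, which docks such organelles at the plasma membrane, read 8.53, 8.55, 8.36 and 8.61 in medium and 8.63, 8.29, 8.41 and 8.70 with SCF. The groups overlapped, and the difference was −0.0051 (SE 0.07, 95% interval −0.18 to 0.17), with D2 at −0.26 and the other 3 experiments between 0.06 and 0.10. Its paralogue Rab27b, used by mast cells and platelets, had a mean of 3.44 and was not tested. Rab32, which acts with Rab38 in the supply of melanosomes, read 7.91, 7.93, 7.76 and 7.74 in medium and 7.85, 7.67, 7.91 and 7.74 with SCF (difference −0.04, SE 0.07). Rab38 read 4.46, 4.44, 4.14 and 4.42 in medium and 4.65, 4.07, 4.55 and 4.55 with SCF. It was higher with SCF by 0.13 to 0.41 in BC, E and I and lower by 0.37 in D2 (difference 0.09, SE 0.12, 95% interval −0.18 to 0.36, limma adjusted p = 0.960). Without D2 its difference was 0.24, which did not pass (unadjusted p = 0.0173, limma adjusted p = 0.978). Rab29, a regulator of the kinase LRRK2, read 6.43, 6.37, 6.35 and 6.19 in medium and 6.45, 6.53, 6.34 and 6.32 with SCF, with overlapping groups and a difference of 0.08 (SE 0.05, limma adjusted p = 0.945). Rab44 differed by 0.03 (SE 0.09).

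**Figure D3:**
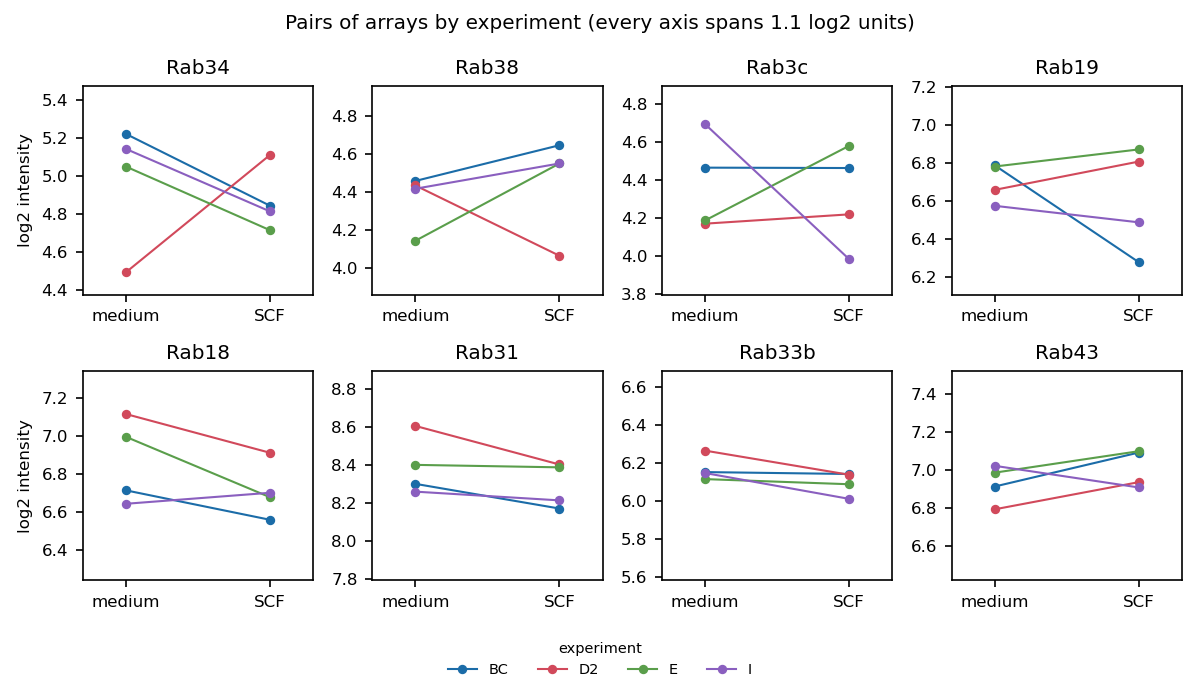
Log2 intensity (vertical axis) of 8 Rab genes in the medium and SCF arrays, 1 coloured line per experiment. Rab34 and Rab38 run one way in BC, E and I and the opposite way in D2, Rab3c turns between E and I, Rab19 drops in BC, and Rab31 and Rab33b slope down in all 4 experiments.

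The ER and Golgi Rabs formed the largest group, with 12 of 14 above the filter and 9 of these 12 below 0 with SCF (median log2 difference −0.05). Rab18, which is found at the ER and on lipid droplets, had the smallest p of any Rab gene. It read 6.71, 7.12, 7.00 and 6.64 in medium and 6.56, 6.91, 6.68 and 6.70 with SCF, lower with SCF in BC, D2 and E and higher by 0.06 in I. Its difference was −0.15 (SE 0.07, 95% interval −0.32 to 0.0078, unadjusted p = 0.0592, limma adjusted p = 0.945). Without I it was −0.23 (unadjusted p = 0.0125, limma adjusted p = 0.832). Rab33b, a Golgi Rab with a role in autophagosome formation, stood lower with SCF in 4 of 4 experiments, at 6.15, 6.26, 6.11 and 6.15 in medium and 6.14, 6.14, 6.09 and 6.01 with SCF. The step was 0.01 in BC and 0.03 in E, and the groups overlapped (difference −0.07, SE 0.05, limma adjusted p = 0.945). Rab2a, which works between the ER and the Golgi, read 9.52, 9.62, 9.49 and 9.49 in medium and 9.38, 9.54, 9.54 and 9.37 with SCF, with overlapping groups and a difference of −0.07 (SE 0.06, limma adjusted p = 0.945).

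Rab43, a Golgi Rab linked to cross-presentation by mouse dendritic cells, read 6.91, 6.79, 6.98 and 7.02 in medium and 7.09, 6.93, 7.10 and 6.91 with SCF. It was higher with SCF in 3 experiments and lower in I, and the difference was 0.08 (SE 0.06, 95% interval −0.07 to 0.23, limma adjusted p = 0.945). The Rab1 paralogues, which start ER to Golgi transport, differed by −0.06 (Rab1a, SE 0.05) and −0.02 (Rab1b, SE 0.06). Rab6a, which controls traffic within and from the Golgi, differed by −0.04 (SE 0.05). Rab19 was at −0.09 (SE 0.11), with −0.51 in BC. Rab2b, Rab6b and Rab33a differed by −0.05, −0.08 and 0.01. Rab39 read 2.88, 2.89, 2.86 and 3.01 in medium and 2.98, 2.78, 2.95 and 3.12 with SCF, below the filter on all arrays, and was not tested, like its paralogue Rab39b.

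Of the exocytic and plasma membrane Rabs 9 of 11 were above the filter. Rab8b, which carries vesicles to the cell surface, read 9.54, 9.52, 9.55 and 9.61 in medium and 9.66, 9.39, 9.56 and 9.67 with SCF, with overlapping groups (difference 0.01, SE 0.06). Rab8a differed by −0.03 (SE 0.06), and Rab10, which takes glucose transporters and Toll-like receptor 4 to the surface, by −0.02 (SE 0.06). Rab12 and Rab13 differed by −0.01 and 0.0063. The Rab3 genes regulate exocytosis of stored vesicles. Rab3a differed by 0.02 (SE 0.08). Rab3d had a difference of −0.09 (SE 0.09) and read 6.54 in the SCF array of BC, against 6.67 to 6.94 in the other SCF arrays. Rab3c read 4.46, 4.17, 4.18 and 4.69 in medium and 4.46, 4.22, 4.58 and 3.98 with SCF, so that E was higher by 0.39 and I lower by 0.71 (difference −0.07, SE 0.16). Rab26, a Rab of secretory granules, read 4.79, 4.55, 4.50 and 4.70 in medium and 4.95, 4.65, 4.68 and 4.58 with SCF, with overlapping groups and a difference of 0.08 (SE 0.07, limma adjusted p = 0.945). Rab3b and Rab37 were below the filter.

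The remaining members serve autophagy, cilia or ubiquitin ligases, and 4 of 6 were above the filter. Rab24, linked to autophagy, differed by 0.06 (SE 0.07) and Rab23, a ciliary Rab, by −0.05 (SE 0.06). Rab28, known from photoreceptor cilia, read 5.93, 5.87, 6.02 and 5.23 in medium and 5.74, 5.87, 5.80 and 5.54 with SCF (difference −0.03, SE 0.09). Both arrays of experiment I were the lowest of their group. Rab40c, part of a ubiquitin ligase, differed by 0.07 (SE 0.07), and Rab40b and Rab42 were below the filter.

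For 3 genes a second probe set also passed the filter, and in each it had the opposite sign to the one used. The difference with SCF was 0.15 (SE 0.10) against −0.03 for Rab8a, 0.09 (SE 0.08) against −0.01 for Rab11b and 0.07 (SE 0.06) against −0.08 for Rab6b. None of these passed, so no direction can be given for these genes.

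The 4 experiments, each a new preparation of cells, offer a second comparison. Differences between them were tested by limma's moderated F-test in the same fit, against the spread left after experiment and treatment. No Rab gene of 47 passed an adjusted p of 0.05, where 3.35% of all probe sets did. At the unadjusted level 7 of 47 were under 0.05 (14.9%, against 24.2% of all), namely Rab7b, Rab28, Rab18, Rab31, Rab30, Rab11a and Rab40c. The means of the 4 experiments spanned a median of 0.22 log2 units for the Rab genes and 0.20 over all probe sets.

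Rab7b had the smallest p of these (unadjusted p = 0.00975, limma adjusted p = 0.101), with experiment means of 7.32, 7.56, 7.72 and 7.23. The summed linear intensity of the 8 macrophage markers was highest in E as well, at 2823 in medium and 2845 with SCF, and lay between 1971 and 2298 on the other 6 arrays. The SCF array of BC had both the lowest macrophage sum and the lowest Rab7b value. The sum of the 13 dendritic cell markers was also highest in E, at 11310 in medium and 11260 with SCF. On the other 6 arrays it lay between 10740, in the medium array of D2, and 11210, close to the value of E with SCF. A sum of linear intensities follows its brightest genes most, so it does not show that dendritic cell markers in general were high in E. Of these 13 the CD11c gene Itgax, picked after its values were seen and itself part of the sum, was highest in E and lowest in the SCF array of BC (9.77). Other markers of the list went the other way. The experiment means of Zbtb46 and Flt3 were lowest in E (6.39 and 5.38), and Batf3 was highest in the SCF array of BC (7.385). Whether macrophages or dendritic cells had a part in the level of Rab7b was not tested. Rab28 followed with means of 5.84, 5.87, 5.91 and 5.39 (limma adjusted p = 0.118), so that I stood apart.

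Rab18 and Rab31 were both highest in D2 and next in E. The experiment means were 6.64, 7.01, 6.84 and 6.67 for Rab18 (limma adjusted p = 0.136) and 8.24, 8.51, 8.40 and 8.24 for Rab31 (limma adjusted p = 0.151). Rab30, a Golgi Rab, had its lowest mean in E and its highest in I, at 6.39, 6.37, 6.21 and 6.51 (limma adjusted p = 0.167). Its arrays read 6.37, 6.35, 6.25 and 6.45 in medium and 6.40, 6.39, 6.18 and 6.58 with SCF, a difference of 0.03 (SE 0.06). Rab11a was highest in D2, with means of 6.02, 6.32, 6.16 and 6.19 (limma adjusted p = 0.189).

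Other settings gave calls. With an intensity trend in the prior variance Rab7b and Rab31 passed (limma adjusted p = 0.0273 and 0.0430), as did 12.1% of all probe sets. With a stricter intensity filter Rab7b, Rab18 and Rab31 passed among the 31 Rab genes left, as did 22.0% of the 6334 probe sets then tested.

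**Figure D4:**
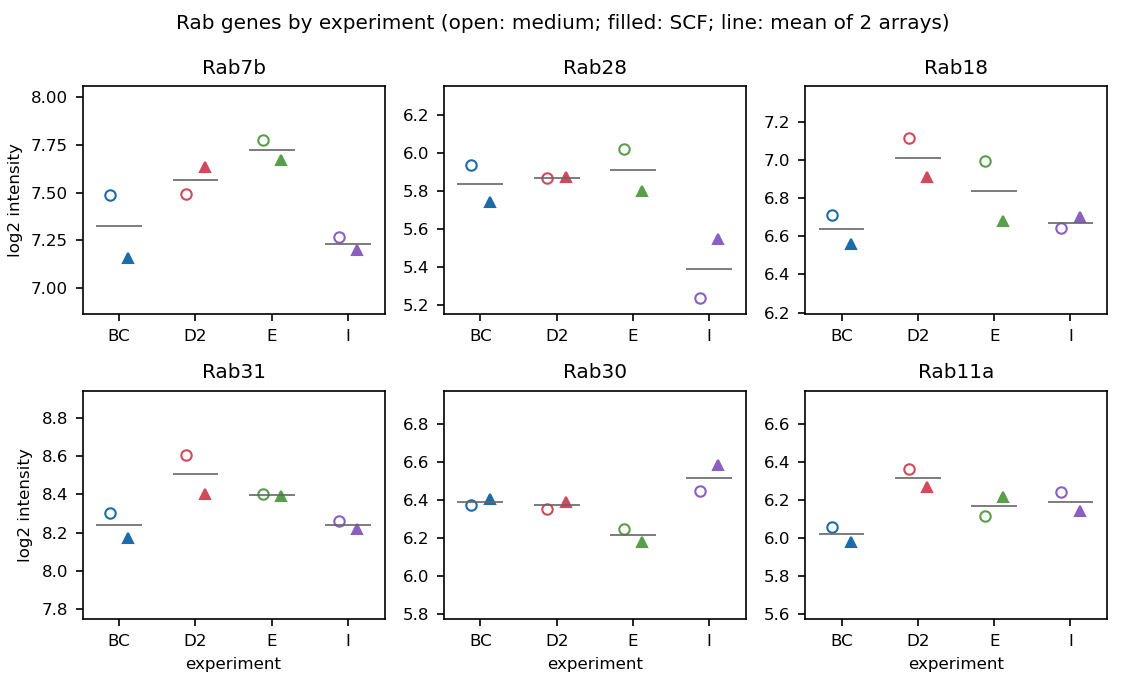
Log2 intensity (vertical axis) of the 6 Rab genes with the smallest p between experiments, with a symbol for the medium array, another for the SCF array and a line at the mean of each experiment. Both arrays of E are the highest of their group for Rab7b and the lowest for Rab30, and both arrays of I are the lowest for Rab28.

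Paralogues were also set against each other within an array, where only the change of the difference between arrays has a meaning. Of 7 pairs computed, 3 were picked after their values were seen because BC was highest and D2 lowest in both conditions, and they are a description with no test. Rab1b minus Rab1a was 0.61, 0.06, 0.35 and 0.36 in medium and 0.55, 0.28, 0.34 and 0.35 with SCF. Rab5b minus Rab5a was 1.38, 0.60, 1.09 and 1.26 in medium and 1.29, 1.05, 1.18 and 1.09 with SCF. Rab11b minus Rab11a was 3.41, 2.90, 3.26 and 3.15 in medium and 3.45, 3.04, 3.13 and 3.22 with SCF. The other 4 pairs did not have this order in both conditions. The experiment means of Cpa3 were also highest in BC and lowest in D2. Those of Gata2, the other marker of its list above the filter, were highest in BC but lowest in I (5.35, 5.038, 5.175 and 4.936). The part of mast cells or basophils in the paralogue differences was not tested. Among the 4 medium arrays that of D2 was the highest or lowest for 28 of 47 Rab genes (59.6%), against 54.2% of all probe sets, and among the SCF arrays that of D2 was so for 32 of 47 (68.1%), against 53.7%.

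**Figure D5:**
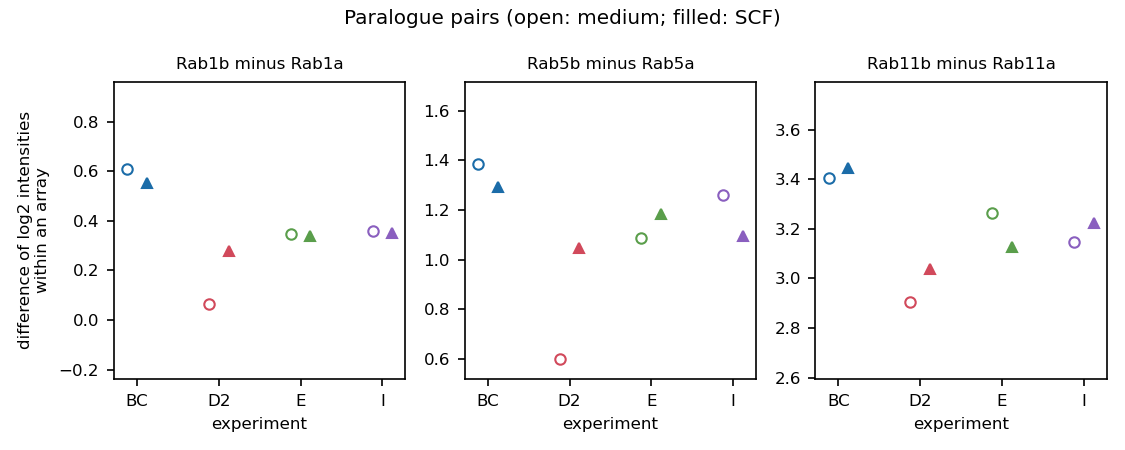
Difference of log2 intensities between paralogues within an array (vertical axis) by experiment, with open symbols for medium and filled ones for SCF. For Rab1b minus Rab1a, Rab5b minus Rab5a and Rab11b minus Rab11a both BC arrays are the highest and both D2 arrays the lowest of their group.

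The proteins that load, switch and read Rabs were described from 4 lists with 131 genes, of which 123 were on the arrays and 112 above the filter. None of the 112 passed in the SCF comparison (limma, smallest adjusted p 0.945). Without adjustment 7 were under 0.05 (6.25%, against 4.21% of all probe sets), 3 with a value above 0 and 4 below. The median log2 difference was 0.0068, against 0.00077 over all probe sets.

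Of 6 tested genes for prenylation and recycling of Rabs 3 were above 0 and 3 below. The smallest p-values were those of Rabac1, a Golgi receptor for prenylated Rabs, at 0.08 (SE 0.05), and Chm, which presents new Rabs to the prenylating enzyme, at −0.05 (SE 0.05). Of 38 exchange factors 22 were above 0. The smallest p-values belonged to Trappc6b, a subunit of the TRAPP complexes, at −0.12 (SE 0.05), and Ccz1, which with a Mon1 protein activates Rab7, at −0.13 (SE 0.05), both lower in 4 of 4 experiments. Of 36 GTPase activators 20 were above 0. Tbc1d10a, which speeds GTP hydrolysis by Rab35 and Rab27a, was higher in 4 of 4 experiments at 0.20 (SE 0.06), with 6.21, 6.01, 6.16 and 6.07 in medium and 6.42, 6.28, 6.21 and 6.32 with SCF. Its highest medium array and lowest SCF array were nearly level, and the gene did not pass (unadjusted p = 0.0105, limma adjusted p = 0.945). Tbc1d19 was at −0.16 (SE 0.05), lower in 4 of 4. Of 32 effectors 13 were above 0. The smallest p-values were those of Exoc6, an exocyst subunit, at −0.16 (SE 0.06), and Fyco1, which links Rab7 on late endosomes to kinesin, at 0.14 (SE 0.06).

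Between experiments 2 of the 112 passed in limma's F-test, both GTPase activators (1.79%), where 3.35% of all probe sets did. Tbc1d19 had experiment means of 6.20, 6.65, 6.35 and 5.87 (limma adjusted p = 0.0171). Tbc1d10c had means of 7.33, 6.86, 6.82 and 7.09 (limma adjusted p = 0.0350). The exchange factor gene Mon1b, whose product pairs with Ccz1, came close with 8.24, 7.74, 8.04 and 8.19 (limma adjusted p = 0.0581). For Dennd1b, Chm, Rabggta, Exoc6 and Unc13d, the others with the smallest p of their lists, limma adjusted p-values lay between 0.0785 and 0.290.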

How the data were processed

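RNA of 8 cultures was labelled with biotin and read on arrays, 1 array each. The deposited table holds 1 linear intensity per probe set, which per the submitters' processing notes was made with RMA. The software and its version are not stated in the sources used. The deposited values were turned to log2 with no pseudocount and left otherwise as they were. Of 41345 probe sets 23521 had 1 symbol, 1814 several and 16010 none in the platform annotation. Those with a symbol and a mean log2 intensity of at least 4.05 (16.6 linear) entered the fit, 12668 in all. In limma 3.58.1 (R 4.3.3), lmFit and eBayes fitted SCF minus medium with a fixed block per experiment and two-sided tests, 3 residual degrees of freedom (7.39 with the prior) and Benjamini-Hochberg adjustment over all probe sets tested, threshold 0.05. Differences between experiments used the moderated F-test of the same fit. The script was tested on simulated data.

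Per the series' design text, the cells of each experiment were made together and then divided between the conditions, which pairs the arrays. Once group means were removed, paired arrays correlated at 0.46, 0.41, 0.42 and 0.36 over all probe sets tested and at 0.27, 0.07, 0.28 and 0.31 over the 47 Rab genes (BC, D2, E and I).

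The members and lists were chosen with earlier results of these data known. The genes given with all arrays are 16 set by name, the 4 smallest p-values in each direction and the 6 smallest between experiments. Of each machinery list the 2 smallest in either comparison are named. Rab3c, Rab38 and Tbc1d10a are given with all arrays, and other genes and markers are named, after their values were seen. Alternatives were the block, the variance trend, the normalization, the filter, the probe set rule and the omission of each experiment. Promoter windows are the 250 bases before the start in a RefSeq table.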

Additional observations from a re-analysis of the deposited data

Results flagged for a closer look

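In each group of 4 arrays the highest and lowest values of the 47 tested Rab genes were set against the other 3 (Dixon's criterion). Of 94 groups 4 held an array that stood apart, and chance gives about 1 in 20. Rab20 read 4.46 in the medium array of E, against 4.22 to 4.25 in the other medium arrays. Rab38 read 4.14 in the medium array of E, against 4.42 to 4.46, and 4.07 in the SCF array of D2, against 4.55 to 4.65. Rab40c read 7.29 in the SCF array of D2, against 7.43 to 7.45.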

How the results depend on the processing

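The table gives no background level, and 4 pairs limit the precision. No Rab gene and no machinery gene passed in the SCF comparison under any of 12 alternatives. Among the 24 tested Rab genes that the naming rule covers, the smallest adjusted p was 0.685, for Rab18 with the stricter filter. With no replicate block the smallest adjusted p of a Rab gene was 1.00, and with the replicate block as a random effect 0.976, so the pairing changed no call. Rab genes at an unadjusted p under 0.05 numbered 1 with the variance trend and 1 with the stricter filter (Rab18 in both), against 0, and between 0 and 2 without any 1 experiment, where Rab34 and Rab38 entered without D2 and Rab18 without I. Machinery genes at that level numbered 1 with no replicate block and 2 with a random block, against 7, and between 2 and 6 without any 1 experiment. Rab genes called between experiments numbered 2 with the variance trend and 3 with the stricter filter, against 0, and those at an unadjusted p under 0.05 numbered 12 with the trend, against 7. Over all probe sets the calls between experiments went from 424 to 1527 with the trend and to 38 without E. Equal array medians moved the median difference of all probe sets from 0.00077 to −0.018 and turned Rab14 to −0.018 and Rab8b to −0.0051, and a repeated quantile normalization turned Rab20 to −0.0064. Of the 24, 15 kept their sign in all 12 alternatives and 9 changed it without 1 experiment, with ranges over the 4 omissions of −0.050 to 0.031 for Rab7, −0.0074 to 0.012 for Rab14, −0.012 to 0.068 for Rab20, −0.039 to 0.080 for Rab27a, −0.11 to 0.031 for Rab32, −0.00018 to 0.064 for Rab35, −0.020 to 0.064 for Rab8b, −0.14 to 0.041 for Rab28 and −0.0011 to 0.068 for Rab30. The cause was not tested.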
